A study of Mus musculus with 6 samples.

Results

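Collagen genes were measured in 6 cultures of mouse dorsal root ganglion (DRG) neurons, 3 given vehicle and 3 given HC-HA/PTX3. The genes were chosen by symbol, as all those written Col, a type number, the letter a and a chain number, with at least 10 counts in 3 or more cultures. Of 35976 genes listed, 44 had such a symbol, and 41 reached the count minimum and were kept as members. All 41 also passed the low-count filter of the test, as did 18277 genes in total. The ganglia were taken from all lumbar levels of adult wildtype C57BL/6 mice of both sexes, dissociated with dispase and collagenase, and plated on poly-d-lysine and laminin in medium with serum and GDNF. HC-HA/PTX3, a hyaluronic acid complex with pentraxin 3 that is purified from human amniotic membrane, was given at 15 µg/mL for 24 h to cultures that had been plated for 24 h, and the vehicle cultures followed the same schedule. The comparison addresses whether hours of exposure to the complex alter gene expression in DRG neurons. The study calls the samples biological replicates. Neither its text nor the labels, which number the cultures 1 to 3 in both groups, say whether they came from separate animals. The p-values of the main fit measure how the treatment difference varied between same-numbered pairs of cultures, and this spread may be technical.

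The libraries held 42516054, 42617496 and 54117547 counts in vehicle replicates 1, 2 and 3, and 37998071, 37434266 and 38420247 counts in HC-HA/PTX3 replicates 1, 2 and 3. Values of single cultures are given in that order of replicate numbers throughout. Levels are library-scaled counts (CPM) from edgeR with trimmed mean of M-values (TMM) scaling. A collagen with 0 counts could still have stood at 0.0536 to 0.0808 CPM, the level of 3 counts in each library, and this limit covers counting error only.

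Collagens are proteins of the extracellular matrix whose chains wind around each other along a repeat rich in glycine. Fibrillar collagens, types I, II, III, V, XI, XXIV and XXVII, assemble into fibrils, with type I and type III forming most of the fibrils of connective tissue and type V starting and limiting their growth. Type IV makes the sheet of basement membranes, type VII anchors that sheet to the matrix beneath it, and types XV and XVIII are proteoglycans of the same zone. Type VI forms beaded filaments and types VIII and X form short-chain networks. The fibril-associated collagens with interrupted triple helices (FACIT), such as types XII and XIV, lie on the surface of fibrils, and the transmembrane collagens XIII, XVII, XXIII and XXV are held in the plasma membrane of the cell that makes them. In ganglia and nerves, connective tissue cells are known as a main source of fibrillar collagen, and the glial cells around neurons lie on basement membranes that contain type IV.

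Each class was represented in the cultures. The members comprised all 11 fibrillar chains, all 9 listed chains of the basement membrane zone, 8 of 9 network chains, 8 of 9 FACIT chains, 3 of 4 transmembrane collagens and 2 chains outside these classes, Col26a1 and Col28a1. The 3 symbols that missed the count minimum were Col9a1, a cartilage FACIT chain with 3, 5 and 32 counts in the vehicle and 6, 3 and 13 in the treated cultures, Col17a1, a collagen of epithelial hemidesmosomes with 6, 12 and 4 (vehicle) and 9, 20 and 9 (treated), and Col6a6, a type VI chain with 6, 4 and 9 (vehicle) and 13, 8 and 19 (treated). The member with the fewest counts was Col4a6, with 12, 14 and 12 counts in the vehicle and 14, 6 and 10 in the treated cultures. These genes hold few counts, and their differences are not read.

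The most abundant collagens per length came from the basement membrane and from fibrils. Per kilobase of exon in GENCODE M21, the vehicle cultures held 107 ± 25.4 CPM of Col4a1 and 76.9 ± 16.4 of Col4a2, the partner chains of the common type IV network (mean ± SD, n = 3 cultures). Among fibrillar chains, Col1a1 stood at 77.9 ± 32.6, Col5a2 at 58.1 ± 18.1 and Col3a1 at 56.8 ± 25.9 CPM per kilobase. Col18a1, the source of endostatin, stood at 67.3 ± 29.6, and Col28a1, a collagen known from the surroundings of peripheral glia, at 57.1 ± 51.1. Col4a1 was the highest of the 41 collagens per kilobase in every culture by this measure. The ranges of mean ± SD of the other 6 genes overlap, so their order is not resolved. The lengths join all annotated exons of a gene, at 7.46 kilobases for Col4a1, 9.82 for Col3a1 and 12.4 for Col1a2. They can exceed the transcripts made in these cultures, so a level per kilobase can be too low by an unknown amount. Network chains were led by Col6a3 with 37.1 ± 10.2 and Col8a1 with 29.0 ± 11.0 CPM per kilobase, and FACIT chains by Col12a1 with 20.9 ± 8.92 and Col16a1 with 15.1 ± 9.19. Transmembrane collagens were scarcer, at 2.18 ± 0.263 for Col13a1 and 0.590 ± 0.292 for Col23a1, and the lowest members were Col4a6, Col4a3 and Col6a4, at 0.0351 ± 0.00732, 0.0467 ± 0.00729 and 0.0535 ± 0.0159 CPM per kilobase. The plot of levels by class shows strongly and barely expressed chains side by side within the fibrillar, basement membrane, network and FACIT classes.

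**Figure D1:**
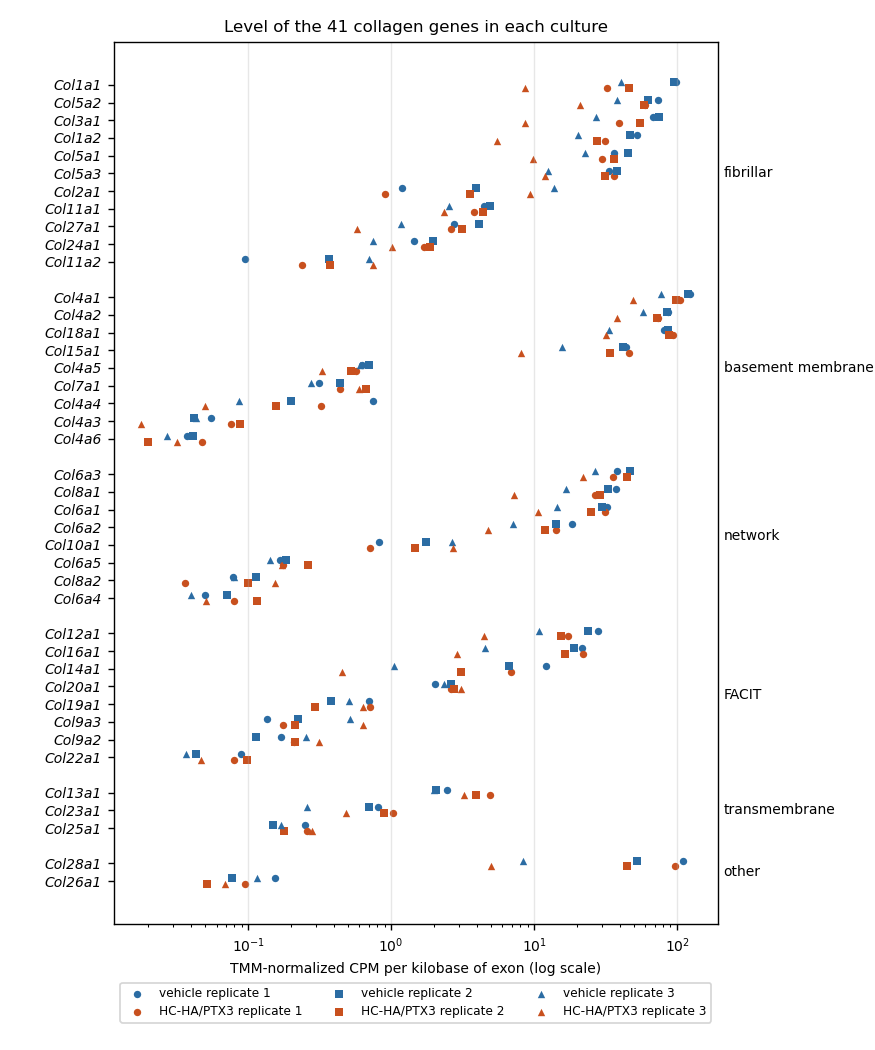
Level of each of the 41 collagen genes in each culture, in TMM-normalized CPM per kilobase of exon on a log scale, by class, with vehicle cultures in blue, HC-HA/PTX3 cultures in orange, and replicates 1, 2 and 3 as circles, squares and triangles. Col4a1 has the highest vehicle mean, 107, and Col4a6 the lowest, 0.0351, and the triangles of many chains lie to the left.

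After HC-HA/PTX3, 8 of the 41 collagens were lower and 2 were higher than in the vehicle cultures of the same replicate number. The 8 lower genes were the type I chains Col1a1 and Col1a2, the fibrillar chains Col3a1 and Col5a1, the FACIT chains Col12a1 and Col14a1, the type IV chain Col4a4 and the short-chain collagen Col8a1. The 2 higher genes were Col13a1, a transmembrane collagen, and Col7a1, the anchoring fibril collagen. A gene was called when its Benjamini-Hochberg adjusted p in edgeR's quasi-likelihood test was under 0.05 and its absolute log2 fold change over 0.5, with the replicate number as a block, so that each treated culture was compared with the vehicle culture of its number. Over all 18277 genes tested, 5.38% were called lower and 3.32% higher by the same rule, beside 19.5% and 4.88% of the collagens. A further 7 collagens passed the adjusted p but not the fold threshold, all of them lower (Col2a1, Col4a1, Col4a2, Col5a2, Col6a1, Col6a2 and Col28a1), which made 15 lower and 2 higher collagens at any fold, against 11.5% and 7.67% of all genes. The remaining 24 did not pass the adjusted p. The median log2 fold change was -0.17 over the 41 collagens and -0.01 over all genes tested. Every setting tried kept the median of the collagens below 0, from -0.35 without vehicle replicate 1 to -0.13 without the block, and it was -0.14 with upper-quartile scaling and -0.16 with raw library sizes.

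The calls rest on the comparison within pairs. Without the block, edgeR's quasi-likelihood test called 0 collagens and 0 of all 18277 genes (0%), with 2 collagens and 2089 genes (11.4%) at an unadjusted p under 0.05. Limma-voom with the block called the same 10 collagens, and DESeq2 with the block called 8 of them, without Col5a1 and Col8a1. With a culture or pair left out, the values of the called collagens moved most, relative to their size, for Col5a1 (from -0.75 to -0.27), Col8a1 (from -0.85 to -0.32), Col4a4 (from -1.07 to -0.51), Col3a1 (from -1.23 to -0.61) and Col1a2 (from -1.30 to -0.74). The groups overlapped for most members, and the plot of log2 fold changes by pair shows the pairs on the same side of 0 for each called gene. All treated cultures lay below all vehicle cultures only for Col4a5, against 8.57% of all genes, and above them only for Col13a1 and Col20a1, against 9.44% of all genes. Within pairs, 20 collagens (48.8%) were lower in the treated culture of all 3 pairs and 9 (22%) were higher in all 3, against 28.7% and 25.2% of all genes tested. In bulk samples, fewer cells of a type and less RNA per cell cannot be told apart.

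**Figure D2:**
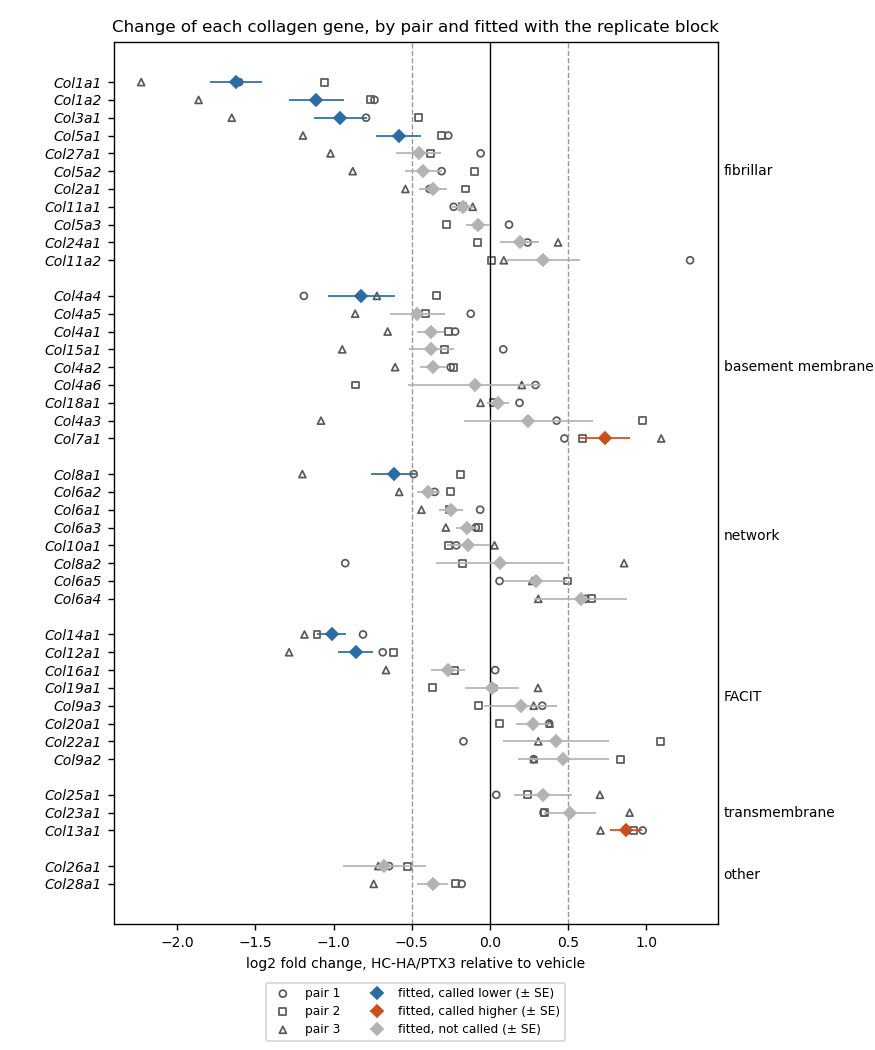
Log2 fold change of each of the 41 collagen genes, HC-HA/PTX3 relative to vehicle, by class, with open marks for same-numbered pairs 1, 2 and 3 and diamonds with bars for the values fitted with the replicate block ± SE. Blue diamonds are the 8 genes called lower, orange diamonds the 2 called higher and grey diamonds the 31 not called, the dashed lines mark the threshold of 0.5, and pair 3 lies farthest to the left for the 4 called fibrillar chains.

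The promoters of called collagens are shown because these genes were called in the same comparison, most of them in the same direction. Of the 44 collagen symbols, 35 were matched by symbol in the RefSeq promoter table of build GRCm38.p6 and 7 of the 10 called genes were among them. The windows are the 250 bases before the start of the gene, and they are printed for the 5 called genes whose window holds no exon of GENCODE M21, each 5′ to 3′ on the strand of its gene. They lie at chr1:45311288-45311537 on the plus strand for Col3a1, chr2:27886175-27886424 on the plus strand for Col5a1, chr16:57754738-57754987 on the minus strand for Col8a1, chr9:108953336-108953585 on the plus strand for Col7a1 and chr10:61979109-61979358 on the minus strand for Col13a1. Capitals mark matches on either strand to CCAAT or TATAAA or GGGCGG or TGANTCA, and no matches overlapped in these windows.
Col3a1: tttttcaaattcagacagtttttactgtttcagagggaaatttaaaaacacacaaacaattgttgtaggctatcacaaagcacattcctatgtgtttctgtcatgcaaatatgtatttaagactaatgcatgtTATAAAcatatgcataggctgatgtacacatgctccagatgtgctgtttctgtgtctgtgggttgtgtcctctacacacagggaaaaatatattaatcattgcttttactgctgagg
Col5a1: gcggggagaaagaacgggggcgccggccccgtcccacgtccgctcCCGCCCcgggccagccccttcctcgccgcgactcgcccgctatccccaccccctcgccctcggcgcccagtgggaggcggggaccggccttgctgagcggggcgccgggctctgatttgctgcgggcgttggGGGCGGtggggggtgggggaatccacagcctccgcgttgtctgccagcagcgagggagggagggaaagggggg
Col8a1: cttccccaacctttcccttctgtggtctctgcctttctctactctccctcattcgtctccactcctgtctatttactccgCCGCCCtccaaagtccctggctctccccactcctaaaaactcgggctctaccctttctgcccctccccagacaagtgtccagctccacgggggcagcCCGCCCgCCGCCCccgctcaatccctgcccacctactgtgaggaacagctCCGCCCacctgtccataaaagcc
Col7a1: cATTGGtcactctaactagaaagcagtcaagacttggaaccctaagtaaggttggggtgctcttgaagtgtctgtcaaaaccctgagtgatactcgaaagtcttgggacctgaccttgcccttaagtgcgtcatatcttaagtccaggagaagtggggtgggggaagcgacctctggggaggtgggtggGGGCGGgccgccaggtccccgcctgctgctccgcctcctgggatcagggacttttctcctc
Col13a1: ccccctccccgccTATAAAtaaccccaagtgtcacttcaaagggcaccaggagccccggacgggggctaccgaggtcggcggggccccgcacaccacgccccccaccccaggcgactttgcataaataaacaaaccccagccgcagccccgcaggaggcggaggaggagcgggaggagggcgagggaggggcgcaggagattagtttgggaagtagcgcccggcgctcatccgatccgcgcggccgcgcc

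These windows have no motif in common. Col3a1 and Col13a1, which moved in opposite directions, each held 1 match to TATAAA. Col5a1 held 2 matches to GGGCGG, Col8a1 held 4, and Col7a1 held 1 beside 1 match to CCAAT. Over all 32851 promoter windows of the same length, 12.4% held TATAAA, 32.7% GGGCGG, 33.8% CCAAT and 6.75% TGANTCA. Over the 38 collagen windows, counting alternative starts, 5 held TATAAA, 22 GGGCGG, 13 CCAAT and 1 TGANTCA. A match is a description of the letters and not a binding site, and the share over collagens was not tested.

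Among fibrillar collagens, 4 of 11 were called lower and 0 higher, and the class had a median log2 fold change of -0.43. Col1a1 (chr11:94936224-94953042, plus strand, in the GENCODE M21 annotation of mm10), the chain that contributes most of the type I collagen molecule, stood at 642, 628 and 265 CPM in the vehicle cultures and at 211, 302 and 56.4 CPM in the treated cultures. Every treated culture was below its vehicle partner, and replicate 3 was the lowest of its group on both sides. The fitted log2 fold change was -1.62 (SE 0.17, adjusted p = 0.000547, edgeR quasi-likelihood test, Benjamini-Hochberg adjusted), the largest among the collagens in size. Its partner chain Col1a2 (chr6:4504814-4541544, plus strand) stood at 650.2, 579.5 and 251 CPM with vehicle and 389.8, 341 and 68.9 CPM with HC-HA/PTX3. Replicate 3 was again the lowest of both groups, and all 3 pairs were lower, with a log2 fold change at -1.11 (SE 0.18, adjusted p = 0.00270, same test).

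Col3a1 (chr1:45311538-45349706, plus strand), which forms fibrils together with type I, was at 669, 738 and 266 CPM in the vehicle and 386, 538 and 84.8 CPM in the treated cultures. It shares 141 exon bases with the small gene Gm47302. The log2 differences within pairs 1, 2 and 3 were -0.79, -0.45 and -1.65, and the fitted value was -0.96 (SE 0.17, adjusted p = 0.00441, edgeR quasi-likelihood test, Benjamini-Hochberg adjusted). Col5a1 (chr2:27886425-28039514, plus strand), a chain of the type V collagen that regulates fibril diameter, was at 306, 383 and 192 CPM with vehicle and 254, 309 and 83.8 CPM with treatment. The difference was largest in pair 3, with -0.27, -0.31 and -1.20 on the log2 scale for pairs 1, 2 and 3. Its fitted value of -0.58 (SE 0.15, adjusted p = 0.0204, edgeR quasi-likelihood test, Benjamini-Hochberg adjusted) lay close to the fold threshold, and the call was lost without either culture of replicate 3 or without vehicle replicate 2. Exons of Col5a1 overlap Gm13372 over 113 bases and 2810430I11Rik over 99 bases on the opposite strand, so its value is uncertain to that extent, because the sources used here give no strand for the read counting.

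Its partner Col5a2 lay just outside the fold threshold, at 706, 599 and 367 CPM with vehicle and 570.2, 560.1 and 200.0 CPM with treatment. All 3 pairs were lower, and the log2 fold change was -0.43 (SE 0.12, adjusted p = 0.0326, edgeR quasi-likelihood test, Benjamini-Hochberg adjusted). With a culture or pair left out the value ran from -0.60 without replicate 2, where Col5a2 was called, to -0.19 without replicate 3, and the pass of the adjusted p was lost with DESeq2 and ComBat-seq and without any culture of replicate 1 or 3. Col5a2 and Col3a1 lie tail to tail on chromosome 1, with 24614 bases between their ends. Col27a1, a fibrillar chain of cartilage, was the nearest outside the adjusted p, with a log2 fold change at -0.46 (SE 0.14, adjusted p = 0.0501, same test), and it was called without either culture of replicate 1 or without HC-HA/PTX3 replicate 2. Col2a1, the main cartilage collagen, passed the adjusted p at -0.37 (adjusted p = 0.0168, same test). For the other 4 fibrillar chains, Col5a3, Col11a1, Col11a2 and Col24a1, the fitted values ran from -0.17 for Col11a1 to 0.34 for Col11a2, and none passed.

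The chains of type I had different fitted values, and whether their ratio moved was asked from the raw counts. There, the ratio of Col1a1 to Col1a2 was 0.987, 1.08 and 1.06 in the vehicle cultures and 0.542, 0.885 and 0.819 in the treated cultures. The groups did not overlap, and the mean log2 difference of the ratio was -0.51 (two-sided exact permutation test, p = 0.1, the smallest that 3 cultures against 3 allow). This was 1 of 6 chain ratios, all chosen after their values were seen, and the Benjamini-Hochberg adjusted value over the 6 was 0.6. The ratio was lower in the treated culture of all 3 pairs, by log2 differences of -0.87, -0.29 and -0.37, and a test of this size has no p under 0.05, so it settles nothing about an uneven change of the chains. The ratio of Col4a1 to Col4a2 was nearly level, at 1.60, 1.57 and 1.51 with vehicle and 1.63, 1.54 and 1.46 with treatment (exact permutation test, p = 0.8). The other ratios, Col5a1 to Col5a2, Col4a4 to Col4a3, Col6a1 to Col6a2 and Col6a3 to Col6a1, had exact permutation p from 0.2 to 0.8.

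**Figure D3:**
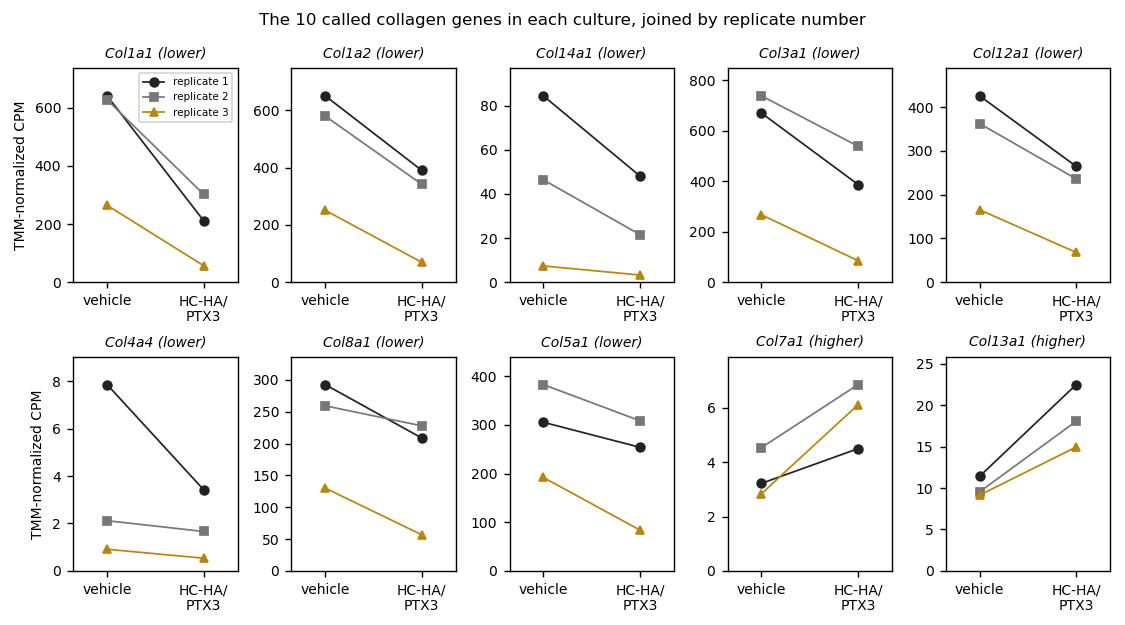
TMM-normalized CPM of the 10 called collagen genes in each culture, with every axis starting at 0 and lines joining the vehicle and HC-HA/PTX3 cultures of the same replicate number. The lines of the 8 genes called lower run down and those of Col7a1 and Col13a1 run up in all 3 pairs, and replicate 3 lies lowest in both groups for the 8.

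Of the 9 collagens of the basement membrane zone, 1 was called lower and 1 higher, with a class median of -0.36. Col4a1 and Col4a2, which form the common type IV network, were abundant in every culture. Col4a1 was at 921, 888 and 577 CPM with vehicle and 789, 739 and 367 CPM with treatment. Col4a2 was at 577, 566 and 383 CPM with vehicle and 485, 481 and 252 CPM with treatment. Both were lower in all 3 pairs and passed the adjusted p below the fold threshold, at -0.38 (SE 0.09, adjusted p = 0.0133) and -0.36 (SE 0.08, adjusted p = 0.0119; edgeR quasi-likelihood test, Benjamini-Hochberg adjusted), passes that were lost without either culture of replicate 3 and, for Col4a1, without vehicle replicate 2. The genes lie head to head on chromosome 8, where their first exons overlap by 22 bases.

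Col4a4 (chr1:82448423-82586849, minus strand), a chain of the type IV network of kidney and lung, held 315, 91 and 51 counts in the vehicle and 127, 63 and 21 in the treated cultures, or 7.87, 2.12 and 0.911 (vehicle) and 3.42, 1.66 and 0.533 (treated) CPM. It was lower in every pair, but the vehicle cultures differed among themselves more than the members of any pair. The log2 fold change was -0.82 (SE 0.21, adjusted p = 0.0237, edgeR quasi-likelihood test, Benjamini-Hochberg adjusted), and the call was lost without either culture of replicate 1. Its neighbour Col4a3, which starts 71 bases away on the other strand, held 22, 18 and 24 (vehicle) and 28, 33 and 7 (treated) counts and was not called, and it shares 563 exon bases with C430014B12Rik on the opposite strand. Col4a5 was the member whose treated cultures all lay below the vehicle cultures, at 4.17, 4.68 and 4.05 CPM with vehicle and 3.83, 3.51 and 2.21 CPM with treatment. It did not pass the adjusted p (log2 fold change -0.46, SE 0.18, adjusted p = 0.0934, same test), and neither did Col4a6, its head-to-head neighbour on the X chromosome at 1308 bases.

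Col7a1 (chr9:108953586-108984875, plus strand), which builds the anchoring fibrils, held 129, 195 and 159 counts in the vehicle and 167, 260 and 241 in the treated cultures, or 3.22, 4.54 and 2.84 (vehicle) and 4.50, 6.86 and 6.12 (treated) CPM. It shares 36 exon bases with Mir711. Each treated culture was above its vehicle partner, though HC-HA/PTX3 replicate 1 and vehicle replicate 2 were at about the same level. The log2 fold change was 0.73 (SE 0.16, adjusted p = 0.0118, edgeR quasi-likelihood test, Benjamini-Hochberg adjusted), and the call was lost without vehicle replicate 2. The plot of the called collagens shows it rising in each pair. Col15a1 and Col18a1, whose C-terminal fragments are known as inhibitors of vessel growth, did not pass, though Col15a1 was called without either culture of replicate 1. Col15a1 had a log2 fold change at -0.37 (SE 0.15) and Col18a1 at 0.05 (SE 0.07).

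In the network class, 1 of 8 members was called lower and 0 higher, with a median of -0.14. Col8a1 (chr16:57624258-57754737, minus strand), a short-chain collagen of vessel walls and corneal basement membranes, stood at 293, 259 and 130.0 CPM in the vehicle and 209, 228 and 56.6 CPM in the treated cultures. The log2 differences in pairs 1, 2 and 3 were -0.49, -0.19 and -1.20, so pair 3 differed most. The fitted value was -0.62 (SE 0.15, adjusted p = 0.0158, edgeR quasi-likelihood test, Benjamini-Hochberg adjusted), and the call was lost without either culture of replicate 3 or without HC-HA/PTX3 replicate 1.

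Type VI collagen, the beaded filament found around many cells, had 0 of its 5 member chains called. Col6a1 stood at 143, 131 and 63.2 CPM with vehicle and 136, 109.7 and 46.6 CPM with treatment, and Col6a2 at 152, 118 and 59.4 (vehicle) and 119, 98.8 and 39.7 (treated) CPM. Both chains were lower in all 3 pairs and passed the adjusted p at folds under the threshold, -0.25 (SE 0.08, adjusted p = 0.0438) and -0.39 (SE 0.07, adjusted p = 0.00559; edgeR quasi-likelihood test, Benjamini-Hochberg adjusted). The pass of Col6a1 was lost with DESeq2, limma-voom, upper-quartile scaling and raw library sizes, and without any culture of replicate 2 or 3. Col6a3, the longest and most abundant of these chains per kilobase, was at 456, 559.8 and 317 CPM with vehicle and 428, 533 and 261 CPM with treatment. It did not pass (log2 fold change -0.15, SE 0.07, adjusted p = 0.151, same test). The low chains Col6a4, with 17, 26 and 19 (vehicle) and 25, 37 and 17 (treated) counts, and Col6a5, with 63, 74 and 75 (vehicle) and 61, 93 and 64 (treated), had positive values of 0.58 (SE 0.30) and 0.29 (SE 0.20) that did not pass, and neither did Col8a2 and Col10a1. Exons of Col6a4 overlap Gm47575 over 162 bases and Gm36993 over 127 bases on the opposite strand.

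Of the 8 FACIT members, 2 were called lower and 0 higher, and the class had a median of 0.10. Col14a1 (chr15:55307750-55520803, plus strand), which binds the surface of type I fibrils, was at 84.6, 46.4 and 7.34 CPM in the vehicle and 48.1, 21.6 and 3.20 CPM in the treated cultures. The vehicle values span more than the treatment difference, yet the log2 differences within pairs were alike, at -0.81, -1.11 and -1.19 for pairs 1, 2 and 3. Its log2 fold change at -1.01 (SE 0.09, adjusted p = 0.000389, edgeR quasi-likelihood test, Benjamini-Hochberg adjusted) had the smallest adjusted p of all collagens. Col12a1 (chr9:79598991-79718831, minus strand), a FACIT of dense and growing connective tissue, was at 426, 363 and 165 CPM with vehicle and 265, 236 and 67.9 CPM with treatment. It was lower in every pair, with a log2 fold change at -0.86 (SE 0.11, adjusted p = 0.00112, same test).

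The other 6 FACIT chains did not pass. Col16a1, the second most abundant per kilobase, was at 145, 129 and 30.7 CPM with vehicle and 149, 110.2 and 19.3 CPM with treatment, and its pair differences had mixed signs. Col20a1 was higher in all treated than in all vehicle cultures, at 13.6, 14.1 and 15.7 against 10.4, 13.5 and 12.1 CPM, with a log2 fold change at 0.27 (SE 0.11, adjusted p = 0.110, edgeR quasi-likelihood test, Benjamini-Hochberg adjusted). The fitted values of Col9a2, Col9a3, Col19a1 and Col22a1 ran from 0.01 to 0.47, with SEs from 0.17 to 0.34.

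Transmembrane collagens had the highest class median, 0.51 over 3 members, with 1 called higher and 0 lower. Col13a1 (chr10:61838236-61979108, minus strand), known for its role at the neuromuscular junction and at cell adhesions, held 457, 410 and 512 counts in the vehicle and 835, 685 and 589 in the treated cultures. In CPM it stood at 11.4, 9.54 and 9.14 with vehicle and 22.5, 18.1 and 15.0 with HC-HA/PTX3, so the lowest treated culture was above the highest vehicle culture. The log2 fold change was 0.87 (SE 0.10, adjusted p = 0.000938, edgeR quasi-likelihood test, Benjamini-Hochberg adjusted). Col23a1 lay just outside the adjusted p, at 4.64, 4.03 and 1.48 CPM with vehicle and 5.90, 5.14 and 2.79 CPM with treatment (log2 fold change 0.51, SE 0.17, adjusted p = 0.0563, same test), and it was called with raw library sizes and ComBat-seq. Col25a1, which is known from neurons, had 0.34 (SE 0.19) and did not pass.

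Of the 2 members outside these classes, neither was called. Col28a1 was at 541, 257 and 41.2 CPM with vehicle and 478, 221 and 24.6 CPM with treatment. It passed the adjusted p under the fold threshold (log2 fold change -0.37, SE 0.10, adjusted p = 0.0278, edgeR quasi-likelihood test, Benjamini-Hochberg adjusted), a pass lost without vehicle replicate 2 or either culture of replicate 3, while the replicates of either group spanned a far wider range. Col26a1 held 50, 27 and 53 (vehicle) and 29, 16 and 22 (treated) counts, with a log2 fold change at -0.68 (SE 0.27, adjusted p = 0.106, same test). It was lower in all 3 pairs and was called only with ComBat-seq, as was Col6a4.

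More collagens differed between the replicate numbers than between the treatments, and the same held for all genes tested. In the same fit, 29 of the 41 collagens (70.7%) differed between replicate numbers at an adjusted p under 0.05, against 33.8% of all genes tested. Between the treatments, 17 differed at that adjusted p, 36.6% of the collagens lower and 4.88% higher, against 11.5% and 7.67% of all genes. The test of replicate numbers compares 3 numbers at once and that of treatment 2 groups, so the counts are not of like tests. All 11 fibrillar chains were among the 29. In 25 of the 29, replicate 3 was below replicate 1 in both groups, and in 4, Col2a1, Col11a2, Col10a1 and Col9a3, it was above, as the plot of replicate patterns shows for both kinds. The shares of all genes with these directions are not given here. Col9a3, with 21, 37 and 112 (vehicle) and 25, 31 and 96 (treated) counts, shares 234 exon bases with Tcfl5 on the opposite strand and Col10a1 shares 18 with Nt5dc1, so their values are uncertain to that extent. The labels give no batch, and whether the cultures of a number shared a day, animals or a handling step is not stated.

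Those 4 genes are collagens of cartilage, singled out after their values were seen, but the pattern was not shared by all cartilage collagens. Col11a1 and Col27a1 were among the 25, with replicate 3 at 0.565 and 0.615 times the level of replicate 1 for Col11a1 and 0.425 and 0.218 times for Col27a1, in the vehicle and the treated group. Col2a1 stood at 11.0, 36.5 and 127 CPM in the vehicle and 8.43, 32.7 and 87.0 CPM in the treated cultures, so replicate 3 held 11.5 and 10.3 times the level of replicate 1 (adjusted p = 8.38e-08 for the replicate number, edgeR quasi-likelihood test, Benjamini-Hochberg adjusted). Col10a1, the collagen of hypertrophic cartilage, was at 2.57, 5.52 and 8.29 (vehicle) and 2.21, 4.59 and 8.46 (treated) CPM, and Col11a2 at 0.649, 2.54 and 4.82 (vehicle) and 1.64, 2.56 and 5.13 (treated) CPM. The cartilage proteoglycan gene Acan, picked from a list after its values were seen, had the same order of cultures as Col2a1, at 1.37, 5.19 and 15.9 (vehicle) and 0.889, 3.83 and 12.3 (treated) CPM. Over the list of cartilage and bone markers, 0 of 7 tested genes were called between the treatments, and the summed level was 114, 114 and 115 CPM with vehicle and 101, 102 and 96.7 CPM with treatment. Its most abundant gene Runx2 was lowest in replicate 3, at 83.2, 80.1 and 54.9 (vehicle) and 76.8, 73.5 and 38.8 (treated) CPM, and Hapln1 and Ibsp were lowest in replicate 2. Sox9, a regulator of cartilage, followed the replicate order of Col2a1 within each group, at 19.3, 24.0 and 30.9 (vehicle) and 14.9, 20.1 and 32.0 (treated) CPM. Sp7 also followed it, at under 1 CPM, so the list was mixed. Matn1, Matn3 and Bglap were below the filter, and Matn1 had 0 counts in 3 of the 6 cultures. The part of such cells in the pattern of Col2a1 was not tested.

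Col28a1 and Col14a1 had the opposite pattern. In replicate 1, Col28a1 was 13.1 times its level in replicate 3 in the vehicle group and 19.4 times in the treated group, and Col14a1 was 11.5 and 15.0 times (adjusted p = 9.54e-08 for each gene, edgeR quasi-likelihood test, Benjamini-Hochberg adjusted). The summed level of 8 satellite glia markers was 1529, 767 and 361 CPM with vehicle and 1322, 762 and 381 CPM with treatment. The part of satellite glia in the level of Col28a1 was not tested.

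**Figure D4:**
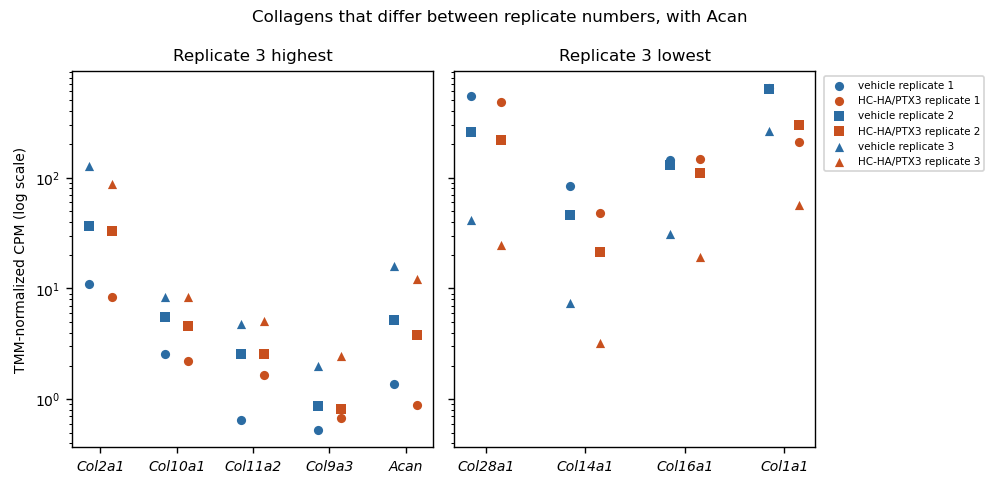
TMM-normalized CPM, on a log scale, of collagens that differ between replicate numbers, with vehicle cultures in blue, HC-HA/PTX3 cultures in orange, and replicates 1, 2 and 3 as circles, squares and triangles. On the left, Col2a1, Col10a1, Col11a2, Col9a3 and the cartilage gene Acan are highest in replicate 3 of both groups, and on the right, Col28a1, Col14a1, Col16a1 and Col1a1 are lowest in replicate 3 of both groups.

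Genes that make, mature, bind and degrade collagen were read from 6 lists of 88 genes, 85 of them tested. Of the 85, 16 were called lower, 2 higher and 67 not, against 5.38% lower and 3.32% higher of all genes tested, with a median log2 fold change of -0.21. The lower genes were 12 with upper-quartile scaling and 14 with raw library sizes. The plot of called shares shows the collagens and all 6 lists above the 5.38% of lower genes over all genes tested. The lists of synthesis, maturation, receptors and turnover hold only 1 or 2 lower genes each, so their shares are not read as differing from 5.38%. The difference between lists was not tested. Without replicate 3 the count of lower genes was 4, so most of these calls needed that pair. Of the lower genes named with a value, Serpinh1, P3h4, Lox, Fn1, Bgn, Thbs2, Lamc1, Nid2, Mrc2 and Timp1 lost the call without either culture of replicate 3, and Lama2 without HC-HA/PTX3 replicate 3. The call of P3h4 was also lost without vehicle replicate 1 or 2 or HC-HA/PTX3 replicate 1, and that of Timp1 without vehicle replicate 2. Among 22 genes of collagen synthesis in the endoplasmic reticulum, 2 were lower, 1 higher and the median -0.13. Serpinh1, the collagen chaperone HSP47 and the most abundant of the list, went from 319, 393 and 260.3 to 237, 288 and 121 CPM, with a log2 fold change at -0.66 (SE 0.11, adjusted p = 0.00399, edgeR quasi-likelihood test, Benjamini-Hochberg adjusted). P3h4, a subunit of the lysyl hydroxylation complex, had -0.51 (SE 0.15, adjusted p = 0.0412, same test), a call lost with limma-voom, ComBat-seq, upper-quartile scaling and raw library sizes. Mia2, a gene of procollagen export, was called higher at 1.23 (SE 0.15, adjusted p = 0.000938, same test), but the tables also list Ctage5, another symbol at the same locus, which had 0.09 and was not called, so reads may be split between the symbols.

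Lox and Loxl2, crosslinking enzymes of collagen fibrils, were lower as were 4 of the fibrillar chains. Of 13 maturation genes, 2 were called lower and 0 higher, with a median of -0.26. Lox, the lysyl oxidase that acts on fibrillar collagen, went from 37.6, 44.5 and 49.9 to 24.9, 36.2 and 18.4 CPM without overlap between the groups, a log2 fold change at -0.77 (SE 0.17, adjusted p = 0.0116, edgeR quasi-likelihood test, Benjamini-Hochberg adjusted). DESeq2 did not call it, and with a culture or pair left out the value ran from -1.03 to -0.43. Its relative Loxl2 had -0.88 (SE 0.16, adjusted p = 0.00544, same test), and ran from -1.15 to -0.56 with a culture or pair left out. Bmp1, the procollagen C-proteinase and the most abundant gene of the list, was not called at -0.28 (SE 0.09). The value of Bmp1 ran from -0.44 to -0.16 with a culture or pair left out.

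Proteins that sit on or beside fibrils had 5 of 14 tested genes called, all lower, with a median of -0.34. They were Fn1, Bgn, Thbs2, Postn and Prelp. Fn1, the fibronectin gene on whose matrix collagen fibrils are laid down, was the most abundant and went from 1025, 1405 and 1235 to 846, 995 and 736 CPM without overlap, with a log2 fold change at -0.51 (SE 0.09, adjusted p = 0.00370, edgeR quasi-likelihood test, Benjamini-Hochberg adjusted), just past the fold threshold, and the call was lost with upper-quartile scaling, raw library sizes and ComBat-seq. Bgn, the small proteoglycan biglycan, had -0.71 (SE 0.15, adjusted p = 0.00855) and Thbs2 -0.53 (SE 0.11, adjusted p = 0.00816, same test). The call of Thbs2 was lost with upper-quartile scaling and ComBat-seq too, and that of Bgn with DESeq2. With a culture or pair left out, Bgn ran from -0.98 to -0.43 and Thbs2 from -0.69 to -0.32. Kera was below the filter.

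Among basement membrane partners, 4 of 14 were called lower and 0 higher, with a median of -0.33. The laminin chains Lamc1, Lama2 and Lama1 and the nidogen Nid2, which links laminin to type IV collagen, made up the 4. Lamc1 had a log2 fold change at -0.53 (SE 0.07, adjusted p = 0.00112), Lama2 at -0.70 (SE 0.11, adjusted p = 0.00278) and Nid2 at -0.58 (SE 0.10, adjusted p = 0.00401; edgeR quasi-likelihood test, Benjamini-Hochberg adjusted). Hspg2, the perlecan gene and the most abundant of the list, was not called at -0.30 (SE 0.09). The value of Hspg2 ran from -0.40 to -0.15 with a culture or pair left out.

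Receptors and turnover genes are given last. Of 10 tested collagen receptors, 1 was lower and 0 higher (median -0.11), the endocytic collagen receptor Mrc2 at -0.63 (SE 0.12, adjusted p = 0.00492, edgeR quasi-likelihood test, Benjamini-Hochberg adjusted). Itgb1, the shared β subunit of the collagen-binding integrins and the most abundant of the list, was at -0.06 (SE 0.07), and Gp6 was below the filter. Of 12 tested turnover genes, 2 were lower and 1 higher (median -0.21), with Timp4 below the filter. Mmp2, a gelatinase, was higher at 0.51 (SE 0.12, adjusted p = 0.0130), while the other gelatinase Mmp9 was lower at -0.93 (SE 0.19, adjusted p = 0.00885) and the inhibitor Timp1 lower at -0.52 (SE 0.15, adjusted p = 0.0338; edgeR quasi-likelihood test, Benjamini-Hochberg adjusted). The call of Timp1, whose value ran from -0.69 to -0.20 with a culture or pair left out, was also lost with DESeq2, ComBat-seq and upper-quartile scaling. That of Mmp2, at 0.34 to 0.71, was lost with no low-count filter and without any single culture of replicate 1 or 2. The call of Mmp9 was lost without vehicle replicate 1 or 2 or HC-HA/PTX3 replicate 1. The value of Mmp9 ran only from -0.98 to -0.90 with a culture or pair left out. Timp3, the most abundant turnover gene, was not called.

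**Figure D5:**
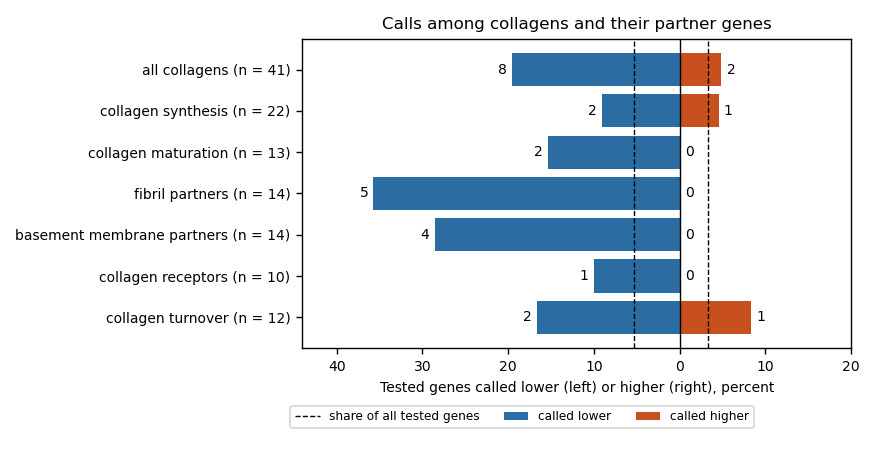
Share of tested genes called lower (left, blue) or higher (right, orange) among all 41 collagens and in each of 6 lists of collagen partners, in percent, with the number of called genes at the end of each bar. Dashed lines mark the shares over all tested genes, 5.38% lower and 3.32% higher, and fibril partners have the longest bar, 5 genes of 14.

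Markers of dividing cells were also lower after HC-HA/PTX3. All 8 proliferation genes were called lower (median -1.50), and their summed level was 829, 628 and 324 CPM in the vehicle and 304, 336 and 88.1 CPM in the treated cultures. Mki67, the most abundant, was at 405, 269 and 116 (vehicle) and 129, 133 and 19.1 (treated) CPM, and none of the 8 was at 0. Their order over the cultures resembles that of Col1a1, with replicate 3 lowest in both groups, but Col1a2, Col3a1 and Col14a1 order the cultures differently. Replicate 3 was also lowest in both groups in the sums of fibroblast, satellite glia and mural markers, but not of endothelial, macrophage or neuron markers. The part of dividing cells in the level of the collagens was not tested.

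Markers of fibroblasts, the cells best known for Col1a1 and Col3a1, had 2 of 10 genes lower, Fbln1 and Osr1, and 0 higher (median -0.36). The summed level was 197, 225 and 122 CPM with vehicle and 180.0, 213 and 98.2 CPM with treatment. Dcn, the most abundant and itself a partner of fibrils, was not called, at 131, 143 and 72.6 (vehicle) and 122, 141 and 65.1 (treated) CPM (log2 fold change -0.09, SE 0.06). No fibroblast marker was at 0 in any culture, and the part of these cells in the fibrillar collagens was not tested.

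Further marker lists are given beside the collagens for the cells that could also make them. Mural cells had 1 gene lower, Acta2, and 1 higher, Abcc9, of 8, with summed levels of 525, 639 and 462 CPM with vehicle and 530.1, 612 and 324 CPM with treatment and Rgs5 as the most abundant gene. Endothelial markers had 0 of 8 called, at 266, 287 and 319.6 (vehicle) and 275, 323 and 291 (treated) CPM with Cdh5 the most abundant. Of 8 satellite glia markers 0 were called, with Apoe the most abundant. Macrophage markers had 2 of 8 lower, C1qa and C1qb, with sums of 51.2, 65.2 and 53.3 (vehicle) and 44.1, 60.6 and 36.9 (treated) CPM and Cd68 the most abundant. Muscle markers had sums of 7.79, 11.5 and 11.6 (vehicle) and 5.98, 14.9 and 7.34 (treated) CPM, with Des the most abundant at 4.69, 9.36 and 9.45 (vehicle) and 2.78, 9.97 and 4.11 (treated) CPM, Mylpf called higher, and Ckm, Myh4, Myh1, Tnnt3 and Myog below the filter. The neurons named by the label were present in all cultures, with 0 of 10 markers called, sums of 7843, 6701 and 7435 (vehicle) and 8303, 7341 and 8485 (treated) CPM and Tubb3 the most abundant. The share of each cell type in the collagen counts was not tested.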

How the data were processed

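RNA was measured in 6 DRG neuron cultures, grouped and numbered by the labels as 3 vehicle and 3 HC-HA/PTX3 cultures. The authors made libraries depleted of ribosomal RNA, aligned the read pairs to mm10 and removed ribosomal RNA reads. They deposited raw counts per gene and culture from featureCounts, with no normalization. The methods and processing notes name HISAT2, while the column headers name STAR, and versions and the strand setting are not given in the sources used here.

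With R 4.3.3 and edgeR 4.0.16, genes passing filterByExpr (18277 of 35976) were scaled by TMM and fitted with glmQLFit and glmQLFTest, with replicate number and treatment as terms, following the batch and condition terms of the methods, and p-values were adjusted by Benjamini-Hochberg over all genes tested. The labels give no batch, so the replicate number stood in for it. This fit left 2 residual degrees of freedom per gene, and edgeR added 8.35 prior degrees of freedom from the spread of other genes. Calls followed the study's thresholds, 0.05 for the adjusted p and 0.5 for the size of the log2 fold change. As a check of the pairing, each group mean was subtracted per gene, and the remainders of the same-numbered cultures had correlations of 0.631, 0.536 and 0.774, all above the limit of 0.1, against -0.613 to 0.148 for other pairings. Libraries of a group were not copies of each other, with a chi-square of 34.5 to 119 per degree of freedom. Pair differences used log2 CPM with a prior count of 2.

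Depth was 37434266 to 54117547 counts, so that 1 CPM stood for 37.1 to 56.0 counts, and genes of few counts carry more counting error. Lengths and gene positions came from GENCODE M21, which is not the annotation of the counting, and promoters from RefSeq GRCm38.p6. Named genes were the called collagens, the 2 most abundant per kilobase in each class, all chains of types I, III, IV and VI, and, in each list, up to 3 called genes with the smallest adjusted p and the most abundant gene. Other genes were named after their values were seen. The members and lists were chosen with earlier results of these data known.

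Alternatives were no block, DESeq2 1.42.0, limma-voom (limma 3.58.1), ComBat-seq (sva 3.50.0) followed by limma, upper-quartile scaling, raw library sizes, other low-count filters, no fold threshold, glmTreat, and each culture or pair left out. The test was checked on simulated data. Protein sequences were not analysed here.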

Additional observations from a re-analysis of the deposited data

How the results depend on the processing

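The 19 alternatives left the direction of all 10 called collagens as it was. The fit with no replicate block called 0 collagens, 0 partner genes and 0 of all genes in either direction, and the smallest adjusted p of a collagen there was 0.244. The cause was not tested. DESeq2 called 6 collagens lower and 2 higher without Col5a1 and Col8a1, and 853 of all genes lower and 373 higher. ComBat-seq with limma called 9 collagens lower and 4 higher, adding Col6a4, Col23a1 and Col26a1, with 1012 of all genes higher. Of all called genes, 61.9% were lower with TMM, 55.8% with upper-quartile scaling, 59.0% with raw library sizes, 61.3% with limma-voom, 52.4% after ComBat-seq, 69.6% with DESeq2, 74.6% with glmTreat and 61.0% to 72.3% with cultures left out. Without a fold threshold, 15 collagens, 30 partner genes and 2103 of all genes were lower and 1402 of all genes higher, by construction. glmTreat, which tests against the threshold itself, called 3 collagens lower (Col1a1, Col1a2, Col14a1) and 1 higher (Col13a1), 0 partner genes lower and 1 higher, and 220 of all genes lower and 75 higher.

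With a culture or a same-numbered pair left out, 6 to 10 collagens were called lower and 1 to 2 higher, 4 to 18 partner genes lower and 1 to 2 higher, and 630 to 1227 of all genes lower and 248 to 783 higher. The low counts of lower partner genes came without replicate 3, and those of all genes without replicate 1. The count of 1 higher partner gene came without vehicle replicate 1 or 2, HC-HA/PTX3 replicate 1, or pair 1 or 2. Col1a1, Col1a2, Col3a1, Col12a1, Col13a1 and Col14a1 were called in each of these fits. Among uncalled genes the log2 fold change had either sign, at -0.22 to 0.77 for Col4a3, -0.35 to 0.28 for Col4a6 and -0.14 to 0.011 for Itgb1, with the change of sign in the fits without a culture of replicate 2 for the collagens and of replicate 1 for Itgb1. The ratio of Col1a1 to Col1a2 had a mean log2 difference of -0.62 to -0.33 with a pair left out, and 28 to 29 collagens differed between replicate numbers under other scalings and a stricter filter, settings chosen after seeing the data. Col4a3, Col4a6, Col6a4, Col8a2 and Col22a1, with under 40 counts in every culture, are limited by depth.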
